A study of Homo sapiens with 4 samples.

Results

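The 948 regions described here were peaks of the MIR205HG ChIRP libraries of RWPE-1 cells that lay inside genes of long non-coding RNAs (lncRNAs), away from protein-coding genes and from transcription start sites. RWPE-1 cells derive from normal prostate epithelium and have been immortalized. Chromatin fragments had been pulled down with biotinylated probes against the lncRNA MIR205HG, also named LEADR, in 3 replicate experiments, and with probes against the bacterial lacZ gene in 1 control library, against which the peaks of every replicate were called. The lists held 723, 10765 and 17054 peaks on chromosomes 1 to 22 and X for replicates 1, 2 and 3, and 28542 in all. The regions were selected on measured values, namely the peak calls of replicates 2 and 3. A replicate 3 peak had to overlap a replicate 2 peak by at least 1 bp, which 8133 of 17054 did (47.7%). Its summit, the position of highest coverage, had to lie within a lncRNA gene of GENCODE release 44 on GRCh37, more than 3000 bp from every protein-coding gene, and outside the window around any transcript start, 1500 bp on its upstream side and 500 bp on its downstream side. The 948 regions were 11.7% of the shared peaks (95% exact binomial interval 10.97 to 12.4%). At such places replicate 3 had a further 1070 peaks without a replicate 2 peak, so that 47.0% of its 2018 peaks there were shared. With replicates 1 and 3 in place of 2 and 3 the same rule left 105 regions, and with replicates 1 and 2 it left 97. The peak lists hold no expression values, so the cell type could not be checked against marker genes.

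A lncRNA gene is transcribed into an RNA that is often spliced like an mRNA but is not known to be translated, and most of its length is usually intron. Many such genes lie alone between protein-coding genes, others run antisense to a coding gene or start from a shared promoter, and some host microRNAs in their introns. ChIRP reads the DNA that is recovered with an RNA after crosslinking, and a peak states where that DNA was more abundant than in the control pull-down, not whether the gene at that place is transcribed or changes with the RNA.

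The DNA around some of the summits of highest enrichment is shown first, because short stretches of it were identical to the MIR205HG transcript. Of the 10 regions of highest mean fold in replicates 2 and 3, LINC02296, ENSG00000272449 and ENSG00000257060 are not shown. The longest match of LINC02296 was 11 nt. Those of ENSG00000272449 and ENSG00000257060, 17 and 14 nt, lay in the part of the transcript taken as derived from Alu, introduced below. Each line gives 201 bp of the plus strand of GRCh37 (hg19) centered on the replicate 3 summit, with the longest exact match to either strand of the transcript in capitals. The first pair lay in introns of different chromosomes and held the same 15 nt, equal to bases 945 to 959 of the transcript.
LINC02694, chr15:39020873-39021073: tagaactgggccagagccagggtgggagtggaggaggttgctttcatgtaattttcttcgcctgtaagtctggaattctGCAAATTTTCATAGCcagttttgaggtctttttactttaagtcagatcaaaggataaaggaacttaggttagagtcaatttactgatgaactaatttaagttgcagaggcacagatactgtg
LIX1-AS1, chr5:96732254-96732454: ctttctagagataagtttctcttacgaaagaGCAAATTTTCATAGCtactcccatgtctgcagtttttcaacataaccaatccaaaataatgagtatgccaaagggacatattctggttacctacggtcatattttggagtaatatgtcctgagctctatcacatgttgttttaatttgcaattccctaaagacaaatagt
The next pair held the same 13 nt of bases 463 to 475 and aligned to each other over 186 bp with 84.9% identity. HELLPAR aligned to both, with 70.2% and 72.7% identity, but held no exact match of 10 nt and so has no capitals.
ENSG00000234810, chr1:56196915-56197115: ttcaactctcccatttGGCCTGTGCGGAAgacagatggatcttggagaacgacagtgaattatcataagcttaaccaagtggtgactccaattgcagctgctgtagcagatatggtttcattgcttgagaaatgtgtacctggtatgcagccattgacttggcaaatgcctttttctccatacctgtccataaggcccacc
ENSG00000276759, chr9:26107430-26107630: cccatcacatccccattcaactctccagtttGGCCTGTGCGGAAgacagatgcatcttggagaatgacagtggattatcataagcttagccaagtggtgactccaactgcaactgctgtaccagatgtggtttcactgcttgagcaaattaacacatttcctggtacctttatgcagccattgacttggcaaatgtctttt
HELLPAR, chr12:102723181-102723381: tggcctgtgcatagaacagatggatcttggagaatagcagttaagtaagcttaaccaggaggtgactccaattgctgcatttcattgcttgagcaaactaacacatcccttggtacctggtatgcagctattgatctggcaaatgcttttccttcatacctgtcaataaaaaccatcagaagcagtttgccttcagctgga
ENSG00000256982 held bases 462 to 474 in the other orientation, and its window did not align to those 3 over 100 bp.
ENSG00000256982, chr16:89118244-89118444: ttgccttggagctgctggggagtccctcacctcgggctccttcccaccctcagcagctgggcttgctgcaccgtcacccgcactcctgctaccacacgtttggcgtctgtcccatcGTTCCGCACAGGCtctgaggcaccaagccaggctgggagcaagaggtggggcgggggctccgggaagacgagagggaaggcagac
LINC01580 held 14 nt of bases 19 to 32, near the start of the transcript, where matches were most frequent outside the part taken here as derived from Alu (212 bases), the most abundant interspersed repeat of the human genome.
LINC01580, chr15:94516650-94516850: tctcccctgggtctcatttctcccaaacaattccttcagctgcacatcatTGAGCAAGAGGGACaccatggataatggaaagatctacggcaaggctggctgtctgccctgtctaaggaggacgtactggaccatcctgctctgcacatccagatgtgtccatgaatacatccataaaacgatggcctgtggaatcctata

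Fold enrichment, as the peak caller gave it, compares the ChIRP coverage at the summit with the lacZ background. This background is local, or else a lowest level common to the whole list. Where it was at that level, fold within a replicate followed the reads at the summit alone. Fold chose the regions through the peak calls and is described here without a test. Among the 948 regions it ran from 2.28 to 28.8 in replicate 2 (median 6.55, quartiles 5.19 and 8.67) and from 2.70 to 42.6 in replicate 3 (median 8.12, quartiles 5.98 and 11.97). Over all 8133 shared peaks the medians were 6.35 and 7.97, close to those of the regions in lncRNA genes. Fold was higher in replicate 3 than in replicate 2 in 702 regions (74.1%), against 75.4% of all shared peaks. It reached 5 in both replicates in 692 regions (73.0%, against 71.0% of all shared peaks). It reached 10 in 131 (13.8%, against 12.1%) and 20 in 8 (0.844%, against 0.676%). The summits rested on a median of 23 reads in replicate 2 and 22 in replicate 3, worked out from the fold and p-value of each peak. The median distance between the summits of both replicates was 45 bp, and 87 regions had them over 250 bp apart. The median peak width in replicate 3 was 408 bp, and 107 regions were at least 1000 bp wide.

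**Figure D1:**
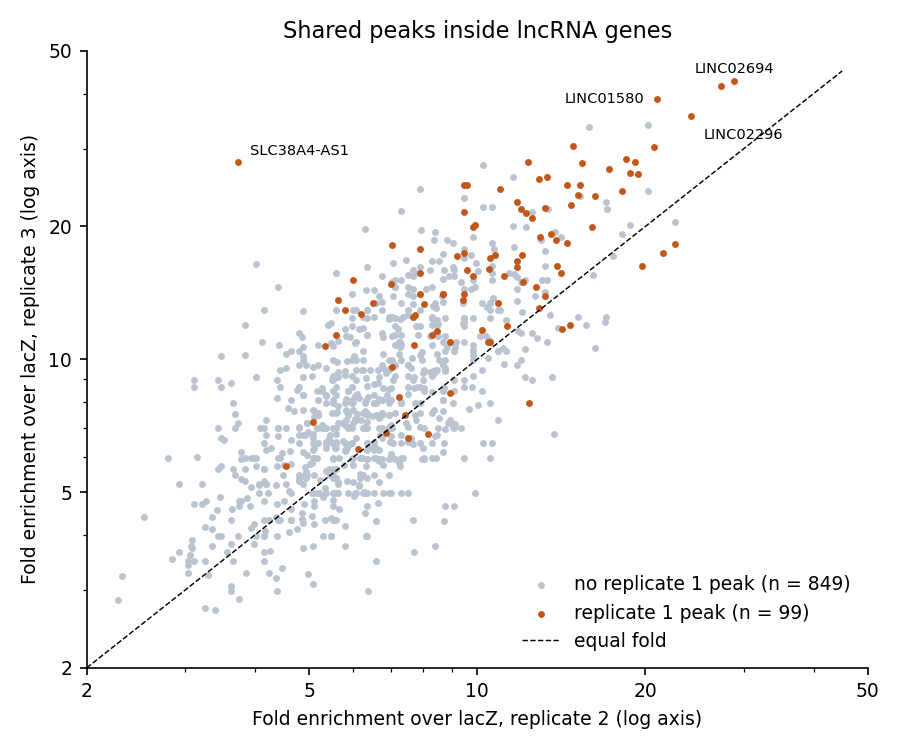
Fold enrichment over the lacZ control in replicate 2 (horizontal, log axis) and replicate 3 (vertical, log axis) for the 948 shared peaks inside lncRNA genes, 1 point each; orange points overlapped a peak of replicate 1. Most points lie above the dashed line of equal fold, and the orange points have a median of 10.9 in replicate 2 and 16.3 in replicate 3, against 6.33 and 7.66 for the gray ones.

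The region of highest mean fold lay in LINC02694, a long intergenic non-coding RNA gene on chromosome 15 (chr15:39020701-39021606, intron 1 of 4, 4464 bp from the nearest exon). Its fold was 22.1, 28.8 and 42.6 in replicates 1, 2 and 3, on 56, 73 and 78 reads at the summit. RASGRP1, which encodes an activator of Ras, was the nearest coding gene at 163197 bp. LINC02694 held 3 further regions, and all 4 summits lay within 18927 bp.

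The following region lay in an exon, the last of ENSG00000234810 on chromosome 1 (chr1:56195757-56198479), with folds of 19.04, 27.3 and 41.5. Next stood intron 4 of LINC02296 on chromosome 14 (chr14:87836034-87836733), 384 bp from an exon, with folds of 17.9, 24.2 and 35.6. GALC, the lysosomal galactosylceramidase, was its nearest coding gene, 467604 bp away. Then came the last exon of LINC01580 (chr15:94516288-94517079), with folds of 14.4, 20.9 and 38.8. All 4 had a peak in each of the 3 lists, with the lowest fold in replicate 1 and the highest in replicate 3. The scaling to the lacZ depth, which differed between the replicates, enters this order.

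The next 3 in rank lay in introns. In ENSG00000256982 (chr16:89115360-89121082), 36439 bp from ACSF3, an acyl-CoA synthetase gene of mitochondria, folds were 20.2 and 33.9 in replicates 2 and 3, and replicate 1 had no peak. In LIX1-AS1 (chr5:96732096-96732734), in an intron of 248074 bp, folds were 10.6, 20.7 and 30.2 in replicates 1, 2 and 3. In ENSG00000276759 (chr9:26106900-26107934) they were 9.87, 19.1 and 28.1. The width of the ENSG00000256982 region, 5723 bp in replicate 3, was the greatest of the 948.

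The remaining 3 of the leading 10 differed in place and sequence. ENSG00000272449 (chr1:2465198-2469575) had folds of 15.9 and 33.7 in replicates 2 and 3 and no replicate 1 peak, 6700 bp from HES5, a Notch target that represses transcription. ENSG00000257060 (chr15:93949708-93951319) had folds of 5.88, 18.4 and 28.4, and its host held 5 more regions. HELLPAR (chr12:102722458-102723495), a single-exon lncRNA gene linked to the pregnancy disorder HELLP, had folds of 12.4, 19.4 and 26.3, 66371 bp from the growth factor gene IGF1. A replicate 1 peak was thus present in 8 of these 10 regions.

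The regions fell in 568 host genes of 18592 lncRNA genes on these chromosomes; where genes overlapped, the one with an exon at the summit, or else the shortest, was taken as host. A single region was found in 335 hosts, 2 in 143 and 3 or more in 90, which held 327 regions. The summit lay in 1 lncRNA gene for 848 regions, in 2 for 95 and in 3 or more for 5. Hosts known only by an identifier held 490 regions in 290 genes, and LINC genes 241 in 151. Genes named as antisense held 92 regions in 57 genes, those named as divergent transcripts 37 in 23, and those named as microRNA hosts 14 in 6. These kinds were read from the gene symbols alone. The median host length over the regions was 117402 bp (quartiles 49030 and 322282 bp). A longer gene has more bases at which a summit can lie, and the lengths of all lncRNA genes were not set beside this.

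Most regions were spread along their hosts. Dividing each host into 5 equal parts from its 5′ end gave 190, 198, 194, 191 and 175 regions, so that no such part held many more than another, although the rule kept regions away from transcript starts. ENSG00000286481 on chromosome 2 had the most regions, 11, with summits over 310930 bp of its 985191 bp and folds from 5.09 to 17.0 in replicate 2 and from 5.98 to 22.7 in replicate 3. ENSG00000234810 had 9, over 394835 bp. The densest of the hosts with 6 or more was GTF2IRD1P1, a gene named as a pseudogene and typed as lncRNA by the annotation, with 6 regions in its 34931 bp, 5 of which aligned to the part of the transcript taken here as Alu-derived. Its folds ran only from 3.36 to 8.46 in replicate 2 and from 3.79 to 12.3 in replicate 3.

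Regions also lay near each other within hosts. Joining summits within 50 kb gave 603 loci, of which 376 held 1 region and 79 held 3 or more, at most 7. In HELLPAR all 6 regions lay in its exon within 4835 bp of its 205012 bp, with folds from 6.05 to 19.4 in replicate 2 and from 4.98 to 26.3 in replicate 3. In TMC3-AS1 the 5 regions lay within 5827 bp, with folds from 6.24 to 11.97 and from 4.98 to 16.7. The 4 regions of FOXP4-AS1 lay within 2875 bp and those of LINC02608 within 2027 bp.

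**Figure D2:**
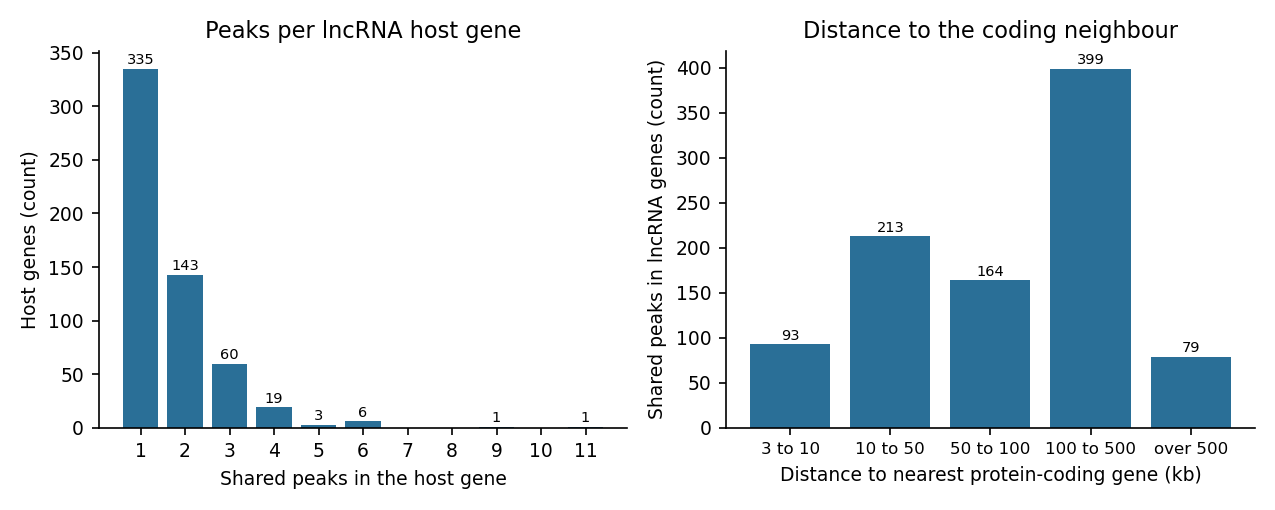
Left, number of lncRNA host genes (vertical) by the number of shared peaks they held (horizontal); right, number of the 948 shared peaks (vertical) by distance of the replicate 3 summit from the nearest protein-coding gene in kb (horizontal). Of the 568 hosts 335 held 1 peak, and 399 peaks lay 100 to 500 kb from a coding gene.

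The summit lay in an intron for 894 regions and in an exon for 54, that is 5.70% (4.31 to 7.37%). Exons took up 4.24% of the bases at which the rule could place a summit. The density was 3.24 regions per megabase in exons and 2.37 in introns, a description with no test, because the location was part of the rule. The 100-base windows over the summit were not all unique in the genome in 7 of the 54 exon regions, against 49 of the 948. None was unique in 4 exon regions, against 11 of the 948. The exon regions of HELLPAR lay close together, as given above. The exon regions lay in 44 hosts, 47 of them in a last exon and 8 in a first exon, some in both where the gene had 1 exon. When the exon of the longest transcript alone was counted the share was 3.90%, and when any overlap of the peak with an exon of its host was counted it was 8.65%.

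Among the exon regions, those in ENSG00000234810, LINC01580 and HELLPAR led in fold. ZNF32-AS3 followed (chr10:44169860-44170352, exon 5 of 5), with folds of 5.79, 15.4 and 27.9 in replicates 1, 2 and 3. A second HELLPAR region (chr12:102723603-102723991) had folds of 16.1 and 15.5 in replicates 2 and 3. ENSG00000255595 (chr12:126844710-126844992, exon 6 of 6) had 12.2 and 15.1. LINC01013 had a region in exon 4 of one transcript, with folds of 5.95, 14.7 and 11.95 in replicates 1, 2 and 3, and one in exon 5 of another, with 7.31 and 21.7 in replicates 2 and 3. Replicate 1 had a peak at 5 of the 54 exon regions, near its share of all regions (10.4%).

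The introns of the intron regions had a median length of 62701 bp over the regions (quartiles 20531 and 142178 bp), and the lengths of all lncRNA introns were not set beside this. The first intron held 342 of them (38.3%) and the second 235, and 108 lay in a transcript that has a single intron. Their summits were a median of 6314 bp from the nearest exon of the host, and the peak itself touched an exon in 28.

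The coding neighbors lay far from most regions. The median distance from the summit to the nearest protein-coding gene was 100748 bp (quartiles 34959 and 249556 bp). It was 3 to 10 kb for 93 regions, 10 to 50 kb for 213, 50 to 100 kb for 164, 100 to 500 kb for 399 and more for 79. The neighbors were 547 distinct genes. The summit lay upstream of the neighbor in 514 regions (54.2%), and the host was on the same strand as the neighbor in 409 (43.1%).

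Of 50 well-known lncRNA genes, 47 were found in the annotation under these names, and 6 held 14 of the regions. PVT1, next to the MYC oncogene, held 3, with folds of 4.87 to 6.79 in replicate 2 and 4.26 to 11.2 in replicate 3, and summits 298236 to 365382 bp from MYC. MIR4435-2HG held 4, with folds of 3.44 to 9.47 and 3.74 to 11.9, and the nearest coding gene was BCL2L11, which encodes a promoter of apoptosis. MIR100HG, the host of a cluster of microRNAs, held 3, with folds of 5.59 to 8.75 and 6.31 to 9.54. No region of these 3 genes had a replicate 1 peak.

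DLEU2, a host gene of microRNAs in a region deleted in leukemia, held 2 regions, with folds of 2.92 and 5.23 in replicates 2 and 3 at one and 3.48 and 3.98 at the other. CDKN2B-AS1, antisense to the cell cycle inhibitor gene CDKN2B, held 1, with 4.01 and 5.98, 14246 bp from CDKN2B. CYTOR held 1, with 8.29 and 11.95. Replicate 1 had no peak at any of the 14 regions, a number too small to set against its 7.99% of all shared peaks. MEG3 and LINC00511 had a shared peak each, in the window of a transcript start, and the other 39 genes had no shared peak. MIR205HG itself held no region.

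The values closest to the limits of the rule are given as a description. The regions nearest to a coding gene lay 3031 and 3072 bp away, with folds of 6.09 and 8.53 in replicate 2, and the shared peaks just outside lay 2947 and 2944 bp away, with 6.20 and 4.04. The smallest overlaps between replicates 2 and 3 were 4 and 7 bp, in ENSG00000234810 and NCAL1, while the closest replicate 3 peaks without a shared base lay 25 and 50 bp from a replicate 2 peak. Of 1405 shared peaks in lncRNA genes, 340 were left out because they also lay inside a coding gene and 68 because they lay in the window of a transcript start only.

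Replicate 1 was not used to choose the regions, so its peaks could be set against them. It overlapped 99 of the 948 (10.4%, 8.57 to 12.6%), while it overlapped 7.99% of all shared peaks. Among shared peaks in introns of protein-coding genes it overlapped 252 of 3447 (7.31%), and the odds were higher in the lncRNA genes (odds ratio 1.48, 95% interval 1.15 to 1.90, two-sided Fisher's exact test, p = 0.00353 adjusted over 4 tests). Among intergenic shared peaks, outside every gene and more than 3000 bp from coding genes, it overlapped 217 of 2526 (8.59%), and that difference did not pass the test (odds ratio 1.24, 0.956 to 1.60, Fisher's exact test, adjusted p = 0.0977). Among peaks of 300 to 600 bp alone the difference from coding introns did not pass either (odds ratio 1.46, 0.998 to 2.104, exact test, adjusted p = 0.0612). These p-values cover counting error over regions of the same libraries, since regions are not replicates and all lists share the lacZ library.

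The 99 regions with a replicate 1 peak lay in 93 hosts and were those of high fold. Their median fold was 10.9 in replicate 2 and 16.3 in replicate 3, while the other 849 had 6.33 and 7.66. Of the 100 regions ranked highest by the geometric mean fold of replicates 2 and 3, 53 had a replicate 1 peak, of the next 100 it was 19, and of the 348 ranked below 600 it was 3. Their median GC content was 41.9%, against 47.0% for the other 849. The fold of replicate 1 at these regions ran from 4.33 to 22.1 (median 8.72).

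The order of the regions differed somewhat in replicate 1. In intron 2 of BANCR (chr9:71921148-71921582), a lncRNA gene first described in melanoma cells, folds were 17.1, 15.3 and 24.8 in replicates 1, 2 and 3. In ENSG00000234730 (chr21:22972638-22972974), 57129 bp from the neural adhesion gene NCAM2, they were 16.7, 18.8 and 26.4. In LINC02307 (chr14:44813635-44814073) they were 16.7, 10.5 and 16.9. In BANCR and LINC02307 the fold was thus higher in replicate 1 than in replicate 2. The region of SLC38A4-AS1 (chr12:46929294-46930817), named after its values were seen, had folds of 12.9, 3.73 and 28.1, low in replicate 2 alone.

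A further group of these lay within introns of unnamed hosts. ENSG00000286328 (chr18:39041424-39041902) had folds of 14.8, 12.9 and 18.9. ENSG00000233290 (chr1:83210677-83210990) had 13.8, 7.01 and 14.8. ENSG00000284418 (chr9:23208740-23209820), whose nearest coding gene was the neuronal RNA-binding protein gene ELAVL2 at 480989 bp, had 13.7, 14.5 and 24.8, and it held 1 more region with a replicate 1 peak.

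**Figure D3:**
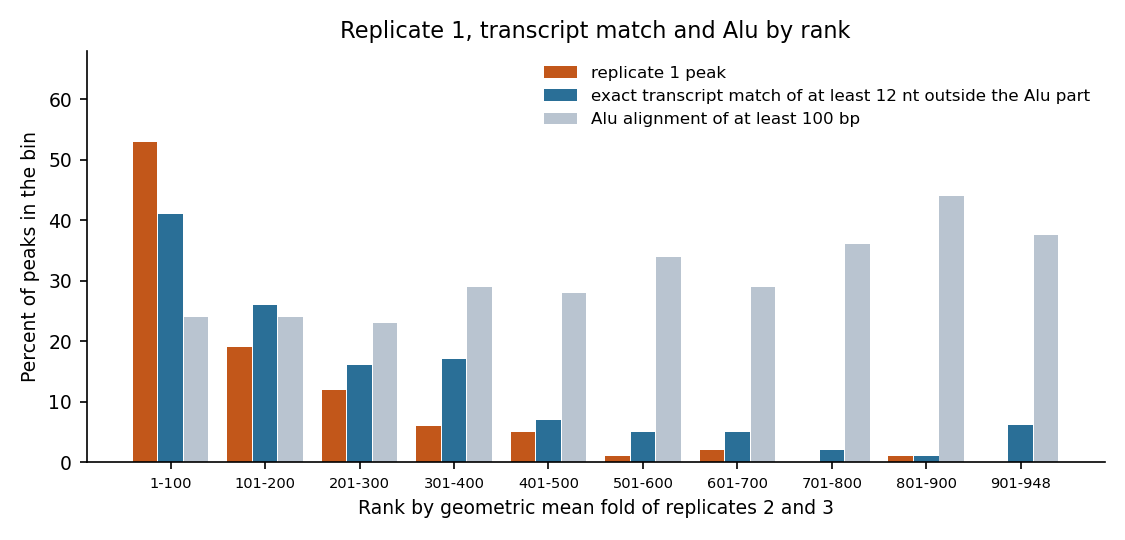
Percent of regions (vertical) with a replicate 1 peak, with an exact match of at least 12 nt to the MIR205HG transcript outside its Alu part within 100 bp of the summit, and with an alignment of at least 100 bp to the Alu part, in bins of 100 regions ranked by the geometric mean fold of replicates 2 and 3 (horizontal; the last bin holds 48). Replicate 1 peaks and matches were most frequent in the first bin, at 53 and 41 regions of 100, and Alu alignments were not, at 24.

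Sequence was not part of the rule either. The Alu part of the transcript aligned over at least 100 bp with 289 regions (30.5%, 27.6 to 33.5%), with a median identity of 81.2%. The median length of these alignments was 110 bp (quartiles 107 and 117 bp). This is close to the limit, so a region without one may still hold Alu sequence. The share with an alignment was 20% when replicates 1 and 3 chose the regions and 16.5% when replicates 1 and 2 did. The Alu part aligned in the same way with 1433 of 3447 shared peaks in coding introns (41.6%) and 907 of 2526 intergenic ones (35.9%). The odds were lower in lncRNA genes than in coding introns (odds ratio 0.616, 0.526 to 0.721, two-sided Fisher's exact test, adjusted p = 1.66e-09) and than in intergenic peaks (0.783, 0.664 to 0.921, adjusted p = 0.00353). The second difference did not pass with 1 peak per 50 kb run of each class (odds ratio 0.886, exact test, adjusted p = 0.337) or among peaks of 300 to 600 bp (0.797, exact test, adjusted p = 0.0612), nor with replicates 1 and 3 choosing the peaks (0.638, exact test, adjusted p = 0.137). With alignments of at least 150 bp, which few peaks had, neither passed (0.909, exact test, adjusted p = 1.0, and 2.67, on the other side of 1, adjusted p = 0.628). Of the regions with a replicate 1 peak 20 had an alignment of at least 100 bp (20.2%), and of the others 269 (31.7%). Of the shared peaks anywhere with a replicate 1 peak 33.1% had one, and of all shared peaks 38.0%. The median fold of the Alu regions was 6.35 and 7.30 in replicates 2 and 3, and that of the rest 6.67 and 8.63. Exact matches of at least 12 nt to the Alu part were also counted, without a test. Within 100 bp of the summit 40.5% of the regions held one, 53.9% of coding introns and 46.5% of intergenic peaks. Windows 2000 bp before and after held one in 14.1% and 11.7% of the regions. In coding introns these shares were 17.6% and 18.1%, and in intergenic peaks 16.6% and 16.35%. The regions thus had the lowest share away from the summit too. At base 190, near the start of the Alu part, 76 regions matched at the summit, and 43 and 36 in the windows before and after. By the base numbers of the study, a stretch that it proposes to bind DNA directly ends there. Matches to that end are therefore not counted outside the Alu part below.

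Outside the Alu part, exact matches of at least 12 nt to either strand of the transcript lay within 100 bp of the summit in 123 regions (13.0%, 10.9 to 15.3%). Windows of the same size 2000 bp before and after the summit held one in 38 (4.01%) and 29 (3.06%). This length and window were chosen after the data were seen, and no test was run. At 14 nt the share at the summit was 3.27%, and at 10 nt it was 40.1%, while the 10-nt shares of the windows before and after were 37.4% and 33.0%. The 50-bp bin on the summit held a match in 37 regions, while bins at 1000 bp or more had a median of 10. The share was 10.7% in coding introns, 12.7% in intergenic peaks and 11.6% over all shared peaks. At 14 nt it was 3.95%, 5.23% and 4.29%, beside 3.27% in the lncRNA genes, and these differences were not tested.

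**Figure D4:**
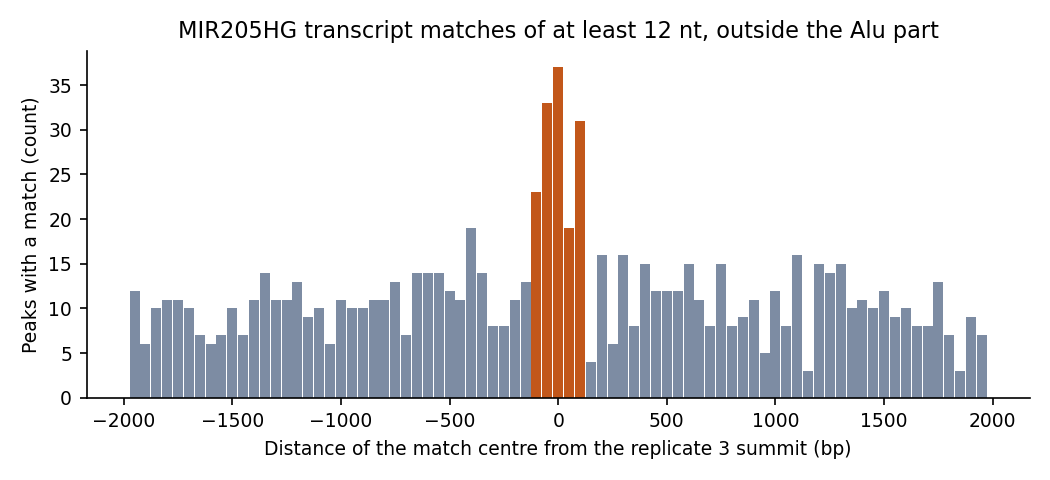
Number of regions (vertical) with an exact match of at least 12 nt to the MIR205HG transcript outside its Alu part, by distance of the match centre from the replicate 3 summit in bp (horizontal, bins of 50 bp, orange within 100 bp). The bin on the summit holds 37 regions and the bins at 1000 bp or more hold 3 to 16.

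Matches were most frequent among the regions that replicate 1 shared. Of the 99 regions with a replicate 1 peak 45 held a match at the summit (45.5%), and 3 and 2 held one in the windows before and after. Without those 99 the share was 9.19%. Among the 100 regions of highest mean fold 41 held a match, and among the others 9.67%. Regions that aligned to the Alu part held one in 2.42%, and those that did not in 17.6%. Of the exon regions 4 held a match and of the intron regions 119.

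The matches fell on a few stretches of the transcript, which are given here as the DNA letters of its sense strand, with the bases that at least 5 regions matched.
bases 15 to 35: ctgagtccctcttgctcaccc
bases 41 to 51: ttggaaaaacc
bases 101 to 110: caattctcaa
bases 438 to 453: cacctttcctcaggag
bases 461 to 472: tgttccgcacag
bases 945 to 959: gctatgaaaatttgc
A match over at least 1 of them was found in 101 regions. The stretches were picked by their counts at the summit. Lower counts in the windows before and after follow in part from this choice and were not tested. The first stretch was matched by 56 regions in 54 hosts, 27 on the plus and 29 on the minus strand of the genome, and by 1 and 2 regions in the windows before and after the summit. These 56 had a median fold of 8.29 in replicate 2 and 15.3 in replicate 3, and 17 had a replicate 1 peak. Over all 8133 shared peaks the same stretch was matched by 414 (5.09%, against 5.91% of the regions in lncRNA genes).

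The other stretches were matched by fewer regions. From bases 438, 461 and 945 the shares were 1.69%, 0.95% and 0.84%, against 1.56%, 0.82% and 0.81% of all shared peaks. From bases 41 and 101 they were 0.74% and 0.63%, against 0.48% and 0.57%. These differences were not tested. The one from base 438 was matched by 16, against 7 and 1 in the windows before and after. The one from base 461 was matched by 9, of which 8 were among the 100 of highest mean fold, and by none in either window. These 9 included ENSG00000234810, ENSG00000276759 and ENSG00000286869, which belong to the family of 13 similar sequences described below. The match of CHODL-AS1, bases 452 to 464, counts for both of these stretches. The one from base 945 was matched by 8, of which 6 had a replicate 1 peak, among them LINC02694, LIX1-AS1 and ENSG00000234730. The stretches from bases 41 and 101 were matched by 7 and 6 regions, against 2 to 3 and 1 to 2 in the windows. The probe sequences were not used here, so whether the probes carry these stretches was not tested.

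For 3 stretches that the leading regions do not show, 61 bp of the plus strand centered on the match are given for the matching region of highest mean fold.
ENSG00000228566, chr10:66098738-66098798: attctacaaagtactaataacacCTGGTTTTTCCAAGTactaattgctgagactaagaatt
ENSG00000259675, chr15:61940789-61940849: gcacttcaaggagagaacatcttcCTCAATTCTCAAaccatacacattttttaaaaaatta
ENSG00000286757, chr13:100607337-100607397: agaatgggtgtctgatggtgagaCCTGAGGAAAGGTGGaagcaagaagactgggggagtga
They hold bases 39 to 53, 99 to 110 and 437 to 451 of the transcript in capitals. The folds of ENSG00000228566 were 10.2, 16.04 and 19.96 in replicates 1, 2 and 3. Those of ENSG00000259675 were 8.72, 9.84 and 19.96. ENSG00000286757 had 17.0 and 21.9 in replicates 2 and 3 and no replicate 1 peak.

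**Figure D5:**
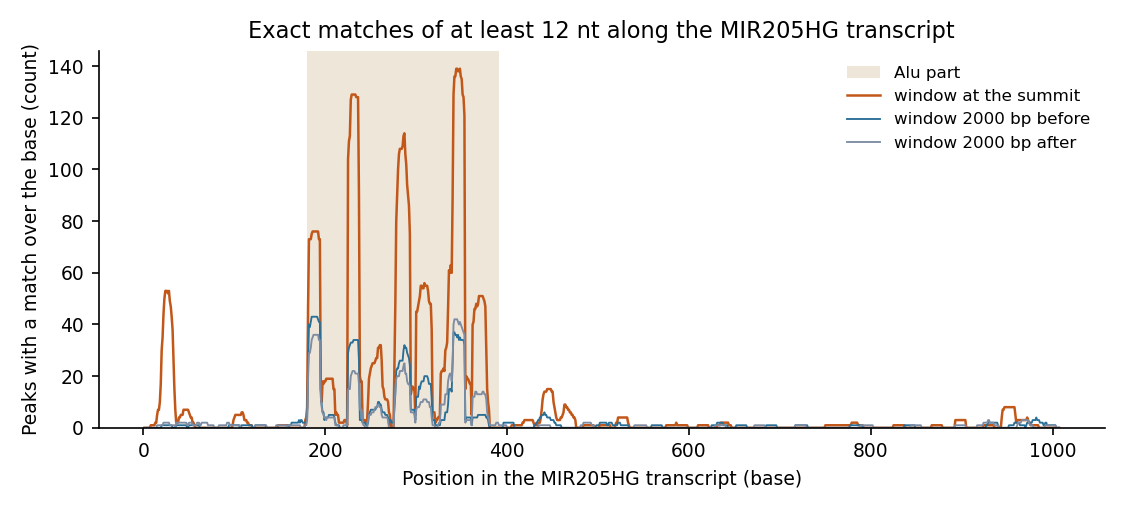
Number of regions (vertical) with an exact match of at least 12 nt over each base of the MIR205HG transcript (horizontal), in the 201-bp window at the summit and in windows 2000 bp before and after it, with the Alu part shaded. Outside the shaded part the highest point is 53 regions, within bases 15 to 35, and the windows before and after stay low there.

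The regions also resembled each other. When their 201-bp windows were aligned to each other, 359 aligned with no other over 100 bp. The largest family had 451 regions with a median identity of 80.0%, of which 266 aligned to the Alu part, and a median fold of 6.35 and 6.97 in replicates 2 and 3. A family of 38 and one of 25 had no region that aligned to the Alu part, with median folds of 5.73 and 6.57, and of 5.64 and 6.02. A family of 13 with a median identity of 86.2% stood higher, with median folds of 7.67 and 14.4, and 5 of its regions had a replicate 1 peak. It took in the regions of ENSG00000234810, ENSG00000276759 and HELLPAR among the leading 10, so these 3 share sequence.

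Reads of 100 bp can be placed with certainty only where the sequence occurs once. Every 100-base window over the summit occurred once in the genome in 899 regions (94.8%), against 96.3% of all shared peaks. In 11 regions none did, among them 3 of ENSG00000179028 on chromosome X, with folds of 9.45 to 10.6 in replicate 2, and the place of their reads is uncertain. The lacZ background at the summit was at the lowest level found in the list in 22.2% of the regions in replicate 2 and 22.7% in replicate 3, against 19.1% and 18.9% of all shared peaks. Among the leading regions it was at that level in both replicates for LINC02694, ENSG00000234810, LINC02296, LIX1-AS1 and ENSG00000276759. Their folds thus set the reads at the summit against this lowest level, not against a higher local background. The rest of the leading regions had a higher background in replicate 2 or 3.

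The density of the regions was lower than that of shared peaks elsewhere, as a description without a test. The places the rule allows took up 393 Mb, 13.9% of the sequenced bases, and held 2.41 regions per megabase. Coding introns held 3.18 shared peaks per megabase, intergenic places 2.56 and the whole genome 2.87. On chromosome 15 the regions were 76 of 329 shared peaks (23.1%), the highest share of any chromosome, and on chromosome 19 they were 6 of 275 (2.18%), the lowest. How many genes of each kind and how many mappable bases a chromosome holds was not set against these shares.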

How the data were processed

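ChIRP-seq was performed on RWPE-1 cells, with 3 replicates for MIR205HG probes and 1 library for lacZ probes, for which no peak list was analysed here. The authors aligned single reads to hg19 and called peaks in each replicate separately against the lacZ library with MACS2. The methods name Bowtie2, while the submitters' processing notes name Bowtie 1.0.1 and MACS2 2.1.0. Deposited narrow peak lists give each peak's position and summit, the fold enrichment (a ratio), the p-value and q-value as −log10, and a score, which is the integer part of the −log10 q-value multiplied by 10. Names inside the lists carry other library numbers than the lists, and replicate numbers follow the sample labels. Library depth is not given in the sources used here. From the fold and p-value the reads at each summit were solved for every peak (tolerance 0.01 in −log10 p), with medians of 27, 21 and 16 reads in replicates 1, 2 and 3 and a depth relative to lacZ of 1.83, 1.39 and 1.00. Intervals are exact binomial (Clopper-Pearson, 95%) and cover counting error only.

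Summits were located in GENCODE release 44 on GRCh37, the sequence of hg19. Peaks were compared by overlap of at least 1 bp, and shares by Fisher's exact test with Benjamini-Hochberg adjustment over 4 tests (scipy 1.17.1, statsmodels 0.14.6). The MIR205HG transcript was ENST00000429156.6_2 (1007 nt). The part of it taken as Alu-derived was bases 180 to 391 (212 bases), with bounds set in an earlier analysis of these data, not by the study. It was aligned with blastn (BLAST+ 2.17.0, E-value of 0.001 or less). The study used another version of this transcript, so its base numbers may differ. Named regions were the 10 of highest geometric mean fold, those of highest fold in replicate 1, exon regions, hosts with 3 or more regions, listed lncRNA genes and regions nearest to the limits of the rule. Of these, 1 region and the sequence of another are not reported here. The members and lists were chosen with earlier results of these data known. Scripts were tested on simulated data. Alternatives covered overlap, location, thresholds, alignment length and single replicates; the 1-peak-per-locus, unique-sequence, width and match-length alternatives were added after seeing the data.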

Additional observations from a re-analysis of the deposited data

How the results depend on the processing

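The number of regions ran from 676 to 975 under the alternatives of overlap, location and threshold, and from 97 to 948 when 1 replicate at a time was left out (105 without replicate 2, 97 without replicate 3). The share in an exon was 3.90% for exons of the longest transcript and 8.65% for peaks touching an exon, and 4.76 to 5.70% when 1 replicate was left out. The odds ratio of a replicate 1 peak against coding introns ran from 1.40 to 1.57 and fell short of the threshold among peaks of 300 to 600 bp (1.46, Fisher's exact test, adjusted p = 0.0612). Against intergenic peaks it did not pass under any alternative run (1.11 to 1.29). The odds ratio of an Alu alignment against coding introns was 0.909 (exact test, adjusted p = 1.0) when the alignment had to span 150 bp, which few peaks reached. Against intergenic peaks it was then 2.67 (0.0339 to 209, exact test, adjusted p = 0.628), it was 0.886 with 1 peak per 50 kb run and 0.797 among peaks of 300 to 600 bp. With 1 replicate left out these odds ratios were 0.336 to 0.616 and 0.489 to 0.783 (0.638 and, by the exact test, adjusted p = 0.137 without replicate 2); the causes were not tested. The share with a transcript match was 16.7% for fold of at least 5 and 16.3% for −log10 q-value of at least 5 in both replicates, 40.1% and 3.27% for matches of 10 and 14 nt, 6.22% within 50 bp of the summit, and 13.0 to 45.7% with 1 replicate left out. No paired analysis was possible because the replicates form 1 group and the control has no peak list here. The replicate 1 list, at 723 peaks, limits how many regions it can overlap, and depth is known only from the reads at the summits and relative to lacZ, not as library totals.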

Other observations

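At the MIR205HG gene itself (chr1:209602162-209606193) only replicate 3 had peaks. They were 3, with folds of 9.21, 5.94 and 4.36 and summits 2304, 3368 and 4273 bp from the 5′ end of the gene, the last of them beyond its end. Replicates 1 and 2 listed no peak there.

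Small RNA genes lay in some hosts. The hosts of 115 regions, 60 genes, held an annotated microRNA or small nucleolar RNA gene. MIR4435-2HG, with 4 regions, was one of them. Of the regions in lncRNA genes on chromosome 15, the leading ones belonged to LINC02694, LINC01580 and ENSG00000257060, with folds of 42.6, 38.8 and 28.4 in replicate 3.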
